A study of Mus musculus with 6 samples.

Results

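The genes described here encode the subunits of calcineurin, the calcium- and calmodulin-dependent protein phosphatase. They are Ppp3ca, Ppp3cb and Ppp3cc, which encode the alternative catalytic A subunits, and Ppp3r1, which encodes the regulatory B subunit. A CLIP cluster was assigned to a gene when at least 1 nt of it lay within the GENCODE vM1 span of that gene on the same strand. By this rule the 4 genes held 51 of the 46579 clusters in both lists, 10 of 9988 for NOVA1 and 41 of 36591 for NOVA2. Ppp3r2, the gene for the B subunit known from testis, held 0 clusters in either list.

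The clusters came from NOVA1 and NOVA2 HITS-CLIP in cortex of wild-type CD1 mice at embryonic day 18.5, and each protein had 3 libraries. In HITS-CLIP, tissue is irradiated with ultraviolet light, the RNA crosslinked to a protein is recovered with an antibody, and its fragments are sequenced as tags. NOVA1 and NOVA2 are related RNA-binding proteins of neurons and regulators of alternative splicing, and the comparison between their lists asks which sites the proteins share. Each list gave 1 tag count per cluster, pooled by the authors over the libraries, so the values here are per protein and not per replicate, no p-value was computed, and the intervals below cover counting error only.

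Calcineurin is a dimer of a catalytic A subunit and a regulatory B subunit. A rise in calcium loads calmodulin and the B subunit, calmodulin binds the A subunit, and an autoinhibitory segment near the end of the A subunit leaves the active site. The phosphatase is abundant in brain, where it is known for the dephosphorylation of NFAT transcription factors, of dynamin and of other endocytic proteins. The catalytic genes have a common exon order, and a short exon near the 3′ end is skipped in transcripts of some of them.

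The sites that the results turn on are shown first, as the RNA strand of the mouse genome NCBIM37 (mm9), 5′ to 3′, with T for U. Capitals mark YCAY, the tetramer NOVA proteins bind, in which Y is a pyrimidine (it reads CCAC or TCAC, or else ends in T as CCAT or as TCAT; it was searched on the cluster strand, with overlapping matches counted). The first set is from the minus strand of chromosome 14, between exon 10 and the common exon after it in Ppp3cb and Ppp3cc, because most NOVA2 tags of these genes lay there. It holds the NOVA1 cluster of 14 tags in Ppp3cb (chr14:21330694-21330850), which lies inside the NOVA2 cluster of highest tag count, and the NOVA2 cluster of 39 tags in Ppp3cc (chr14:70625704-70625866).
Ppp3cb intron 10: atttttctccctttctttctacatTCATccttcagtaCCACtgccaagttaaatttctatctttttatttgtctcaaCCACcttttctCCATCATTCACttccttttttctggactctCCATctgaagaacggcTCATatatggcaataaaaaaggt
Ppp3cc intron 10: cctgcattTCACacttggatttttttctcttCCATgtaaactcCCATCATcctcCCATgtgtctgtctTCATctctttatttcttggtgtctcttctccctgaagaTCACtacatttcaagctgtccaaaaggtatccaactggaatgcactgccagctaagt

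The second set is from intron 2 of Ppp3r1 and of Ppp3ca, on the plus strand, and shows the highest NOVA2 cluster of each gene. For Ppp3r1 it is the whole cluster of 122 tags (chr11:17083419-17083577). For Ppp3ca, whose cluster of 122 tags was longer, it is the 30 nt window with the most YCAY starts (chr3:136473657-136473686), followed by the window of a cluster of 45 tags (chr3:136509082-136509111) that consists of TCAT repeats and was chosen after its values were seen.
Ppp3r1 intron 2: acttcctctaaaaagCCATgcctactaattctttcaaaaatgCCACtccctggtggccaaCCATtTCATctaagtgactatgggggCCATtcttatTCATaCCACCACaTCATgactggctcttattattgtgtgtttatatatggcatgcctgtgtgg
Ppp3ca intron 2, highest: cgagcCCATTCATaacTCACaaatgtTCAT
Ppp3ca intron 2, repeat: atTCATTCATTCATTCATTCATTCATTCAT

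The third set gives the 30 nt window with the most YCAY starts of the highest NOVA1 cluster in each 3′ UTR, for Ppp3ca at chr3:136600283-136600312, for Ppp3cb at chr14:21320294-21320323 on the minus strand and for Ppp3r1 at chr11:17099274-17099303.
Ppp3ca 3′ UTR: agtttgtttctaacattgtTCATtttTCAC
Ppp3cb 3′ UTR: gtggaactccccCCATCACccTCACcCCAT
Ppp3r1 3′ UTR: ttgTCACtgaactgtaaaTCATggacTCAT

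All 4 calcineurin genes held a NOVA2 cluster, as did 22.7% of the 22380 protein-coding genes. Ppp3ca, Ppp3cb and Ppp3r1 also held NOVA1 clusters, which 12.7% of protein-coding genes did. Ppp3ca held 27 NOVA2 clusters with 912 tags and 5 NOVA1 clusters with 135 tags. Ppp3cb held 5 NOVA2 clusters with 329 tags and 3 NOVA1 clusters with 54 tags. Ppp3cc held 3 NOVA2 clusters with 64 tags and 0 NOVA1 clusters. Ppp3r1 held 6 NOVA2 clusters with 218 tags and 2 NOVA1 clusters with 63 tags. The NOVA2 tag sum was thus 6.76 times the NOVA1 sum in Ppp3ca, 6.09 times in Ppp3cb and 3.46 times in Ppp3r1. The whole lists held 1309270 NOVA2 and 304703 NOVA1 tags. By the study's totals NOVA2 was sequenced more deeply, so these raw ratios do not measure relative binding.

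Ppp3ca is the longest of the genes at 267604 nt, and its 27 NOVA2 clusters exceeded the number in 96.0% of the 5076 protein-coding genes with a NOVA2 cluster. Per 10 kb of span, Ppp3r1 came first with 1.46 NOVA2 clusters, followed by Ppp3cb with 1.06, Ppp3ca with 1.01 and Ppp3cc with 0.419. The median over protein-coding genes with a NOVA2 cluster was 0.508 clusters per 10 kb (quartiles 0.255 and 0.982). Ppp3ca, Ppp3cb and Ppp3r1 therefore lay above the upper quartile in density and Ppp3cc lay below the median.

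**Figure D1:**
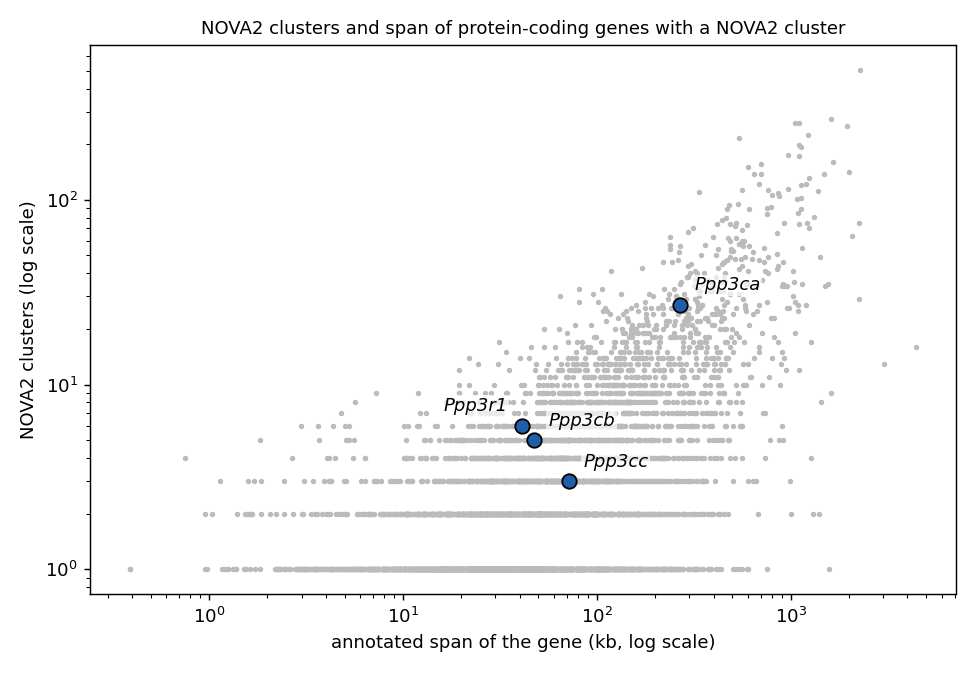
Number of NOVA2 clusters (vertical, log scale) against annotated span in kb (horizontal, log scale) for the 5076 protein-coding genes with a NOVA2 cluster, with the calcineurin genes in blue. Ppp3ca, with 27 clusters, sits among long genes with many clusters, whereas Ppp3r1, Ppp3cb and Ppp3cc hold 6, 5 and 3.

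The clusters of all 4 genes lay in introns or in the 3′ UTR, and 0 lay in coding sequence or in the 5′ UTR by the class that covered most of a cluster. For NOVA2, 35 of 41 clusters were intronic (85.4%, exact Clopper-Pearson 95% interval 70.8 to 94.4), beside 74.6% of the whole NOVA2 list. For NOVA1, 6 of 10 were intronic (60%, 26.2 to 87.8), beside 40.3% of the whole NOVA1 list. Both list values lay within the intervals of the calcineurin genes.

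Exons took a larger part of the NOVA1 tags than of the NOVA2 tags in each gene that both proteins bound. In Ppp3ca, 66.7% of NOVA1 tags and 22.0% of NOVA2 tags were in 3′ UTR clusters. The shares were 42.6% and 10.03% in Ppp3cb, and 50.8% and 14.2% in Ppp3r1. Over the whole lists, exonic clusters took 55.8% of NOVA1 tags and 19.4% of NOVA2 tags, so the calcineurin genes, with 57.5% and 17.4% together, stood near the lists as a whole.

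All 10 NOVA1 clusters overlapped a NOVA2 cluster (100%, exact interval 69.2 to 100), beside 80.1% of the whole NOVA1 list. Of the 41 NOVA2 clusters, 9 overlapped a NOVA1 cluster (22.0%, exact interval 10.6 to 37.6), beside 22.1% of the whole NOVA2 list. By position, 5 of 35 NOVA2 intron clusters (14.3%) and 4 of 6 in the 3′ UTR (66.7%) were shared, and the list as a whole gave 14.1% and 64.5% for these classes. The lists hold no cluster under 10 tags, so NOVA1 tags below that number at the other 30 NOVA2 intron clusters cannot be read from them.

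**Figure D2:**
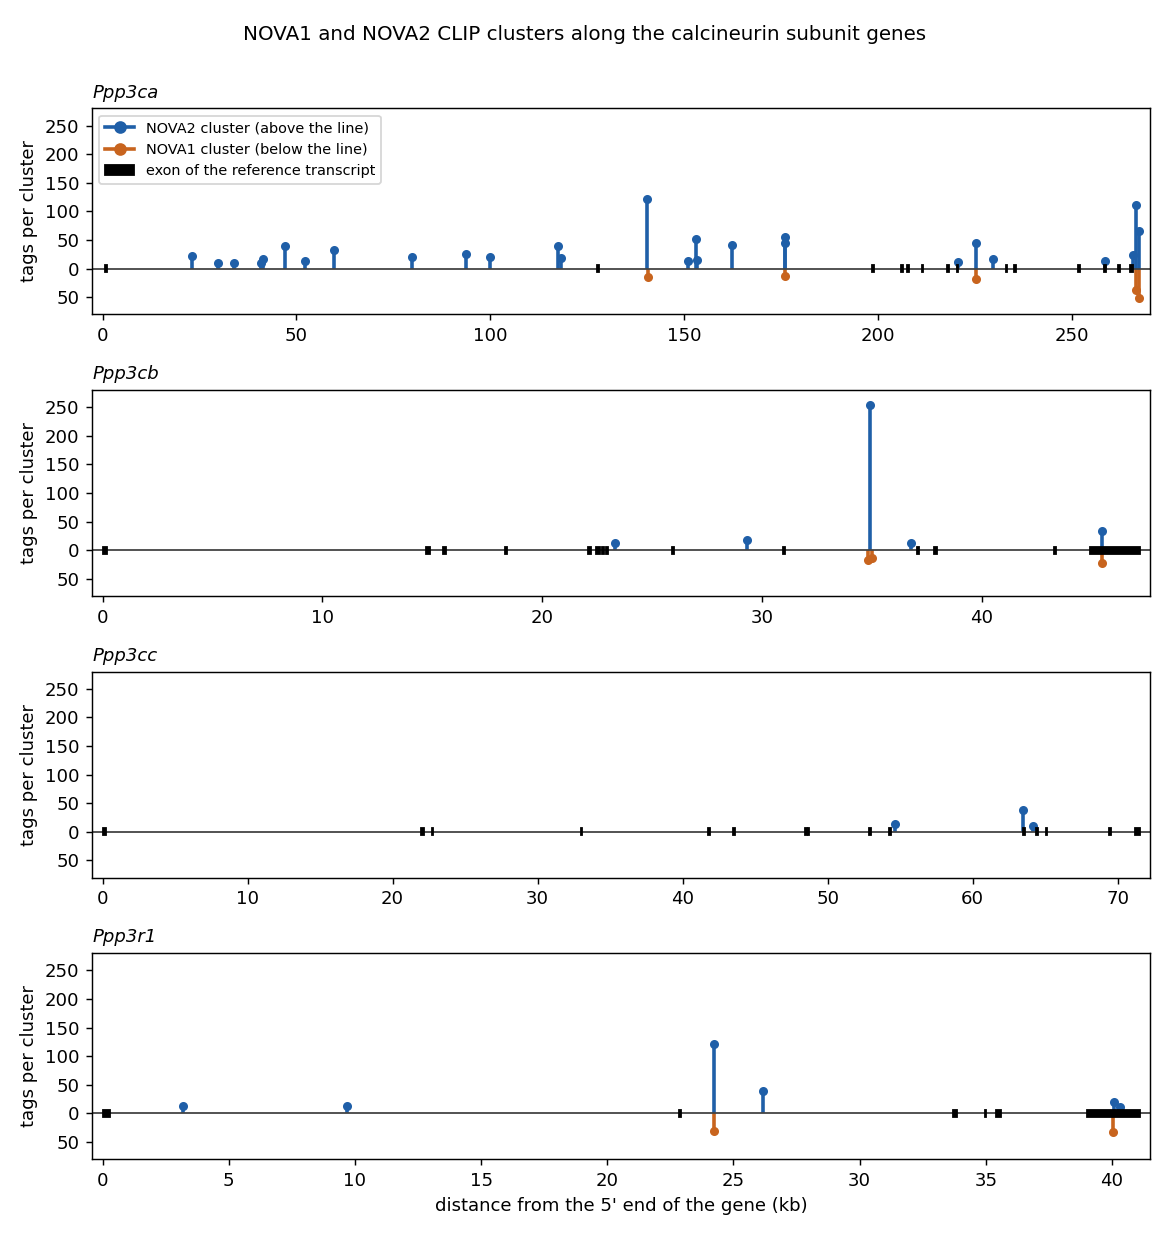
Clusters along the 4 genes, from the 5′ end in kb (horizontal), with tags per cluster (vertical) upward for NOVA2 and downward for NOVA1, and exons of the reference transcript as black boxes. NOVA2 clusters spread through the long first introns of Ppp3ca, while a single cluster of 253 tags dominates Ppp3cb and a cluster of 122 tags dominates Ppp3r1.

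Ppp3ca, on chromosome 3 (chr3:136333088-136600691, plus strand), encodes the catalytic subunit called A alpha. Its NOVA2 clusters lay in 4 of 13 introns of the reference transcript and in the 3′ UTR. Intron 1, of 126824 nt, held 13 clusters of 10 to 40 tags, and intron 2, of 70675 nt, held 7 with a tag sum of 344. The density was much alike in both, 1.03 and 0.990 clusters per 10 kb. Intron 8 held 3 clusters and intron 12 held 1.

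The highest NOVA2 cluster of Ppp3ca had 122 tags and 434 nt (chr3:136473372-136473805) and began 12481 nt after exon 2. At least as many tags were found in 3.70% of all NOVA2 intron clusters. It contained the NOVA1 cluster of 15 tags (chr3:136473553-136473759), and the best window shown above fell inside both. Further into intron 2, NOVA2 clusters of 56 tags (chr3:136508965-136509066) and 45 tags (chr3:136509067-136509193) abutted each other. The first overlapped a NOVA1 cluster of 12 tags. The second, which carries the TCAT repeats, had 7 YCAY starts in 30 nt and overlapped 0 NOVA1 clusters. In intron 8, a NOVA2 cluster of 45 tags (chr3:136558177-136558424) contained a NOVA1 cluster of 18 tags.

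Of the 24 NOVA2 intron clusters of Ppp3ca, 2 lay within 500 nt of an exon. A cluster of 12 tags began 94 nt downstream of exon 8 and a cluster of 14 tags began 138 nt downstream of exon 12. Both exons count as alternative because another annotated transcript skips them. This label does not set them apart, since every exon from 5 to 13 of the reference transcript carries it. The windows with the most YCAY starts are given for these, the first at chr3:136553599-136553628 and the second at chr3:136591727-136591756.
Ppp3ca after exon 8: CCATattCCATtccCCACccccCCATCCAT
Ppp3ca after exon 12: cagTCATgtctaCCACgaaggctcccTCAT
The sequence of the cluster after exon 8 had 72 further copies in the genome (90% identity or more across 50% of its length or more), so the placement of its tags is less certain.

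The 3′ UTR of Ppp3ca held NOVA2 clusters of 24, 111 and 66 tags and NOVA1 clusters of 38 and 52 tags. The cluster of 111 tags (chr3:136599484-136599778) began 1297 nt after the stop codon and overlapped the NOVA1 cluster of 38 tags. The cluster of 66 tags (chr3:136600229-136600358) ended 333 nt before the end of the transcript and overlapped the NOVA1 cluster of 52 tags. The cluster of 24 tags, nearer to the stop codon, overlapped 0 NOVA1 clusters.

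Ppp3cb, on chromosome 14 (chr14:21318586-21365795, minus strand), encodes the A beta subunit. Its NOVA2 tags were concentrated in intron 10, of 6022 nt, where 2 clusters held 80.5% of them. The cluster of 253 tags (chr14:21330662-21331067, 406 nt) alone held 76.9%, and 0.971% of all NOVA2 intron clusters had at least as many tags. It contained 14 YCAY. It began 3677 nt after exon 10 and ended 1939 nt before exon 11, so the annotated exons are not its close neighbours. It contained both intronic NOVA1 clusters of the gene, of 17 tags (chr14:21330947-21331019) and 14 tags.

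The remaining NOVA2 clusters of Ppp3cb were low. A cluster of 12 tags (chr14:21328961-21329066) ended 238 nt upstream of exon 11, and a cluster of 13 tags (chr14:21342430-21342491) began 310 nt downstream of exon 8. A cluster of 18 tags lay 1593 nt upstream of exon 10. In the 3′ UTR, a NOVA2 cluster of 33 tags (chr14:21320240-21320434) contained the NOVA1 cluster of 23 tags, and it began 274 nt after the stop codon.

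Ppp3cc, on chromosome 14 (chr14:70617705-70689257, minus strand), encodes the A gamma subunit. All of its 64 NOVA2 tags lay between exon 10 and the exon of 82 nt that all 3 annotated transcripts share next, an interval of 10091 nt. The 3 clusters there all lay within 500 nt of an exon. A cluster of 14 tags (chr14:70634610-70634664) began 282 nt downstream of exon 10, and a cluster of 11 tags (chr14:70625032-70625180) ended 176 nt upstream of the exon of 82 nt. The cluster of 39 tags covered an alternative exon of 27 nt (chr14:70625735-70625761), which 1 of the 3 annotated transcripts includes. No cluster was listed in the 3′ UTR of Ppp3cc, where the other 3 genes each held clusters of both proteins. The last exon of its reference transcript measured 377 nt, against 2299 nt in Ppp3cb.

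In all 4 genes, 7 of 35 NOVA2 intron clusters lay within 500 nt of an exon. This was a larger share than the 10.4% of the 27293 NOVA2 intron clusters of the list, and no interval was computed for it. Of the 7 clusters, Ppp3cc contributed 3, among them the cluster that covers its exon of 27 nt, Ppp3cb 2, Ppp3ca 2 and Ppp3r1 0. For NOVA1 the number was 0 of 6.

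The same interval could be compared across the catalytic genes. In Ppp3ca it measured 16459 nt, held 0 clusters of either protein and contained 296 YCAY, or 1.80 per 100 possible starts. It contained 110 YCAY in Ppp3cb (1.83 per 100) and 149 in Ppp3cc (1.48 per 100). NOVA2 tags in the interval were 0 in Ppp3ca, 265 in Ppp3cb and 64 in Ppp3cc. The intervals differed in length, and whether the number of YCAY bears on the tags was not tested.

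The exon of 27 nt in Ppp3cc is shown here beside the stretch of Ppp3cb intron 10 most like it. The study names an alternative exon 10b in Ppp3cb. It reports, from RT-PCR and RNA-seq, that splicing of this exon changed in cortex without NOVA2 but not in cortex without NOVA1. GENCODE vM1 has no annotation for exon 10b. All stretches of 27 nt preceded by AG and followed by GT in intron 10 of Ppp3cb were therefore compared with the Ppp3cc exon. This search was chosen after the values were seen.
Ppp3cc exon: aTCACtacatttcaagctgtccaaaag
Ppp3cb stretch: aacggcTCATatatggcaataaaaaag
Of 28 such stretches in Ppp3cb, the one shown (chr14:21330696-21330722) matched at 14 of 27 positions and the next at 11. It lies inside the NOVA2 cluster of 253 tags. A stretch elsewhere in the Ppp3cc interval, outside any cluster, matched at 13, so the match in Ppp3cb stood only 1 position above one that is not the exon. Of 79 stretches in the matching intron of Ppp3ca, the best matched at 11. Similarity of this degree does not make the stretch an exon, and whether it is exon 10b was not tested.

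Most YCAY of these clusters lay ahead of the Ppp3cc exon and of the Ppp3cb stretch matched to it. In the Ppp3cc cluster, 6 of 7 YCAY lay upstream of the exon, 0 downstream and 1 within it. In the Ppp3cb cluster of 253 tags, 13 of 14 lay upstream of the stretch shown, 0 downstream and 1 within it. The clusters also extended further upstream than downstream, by 105 against 31 nt in Ppp3cc and by 345 against 34 nt in Ppp3cb, so most of the searched sequence was upstream. The counts therefore cannot show whether the Ppp3cb stretch is an exon.

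**Figure D3:**
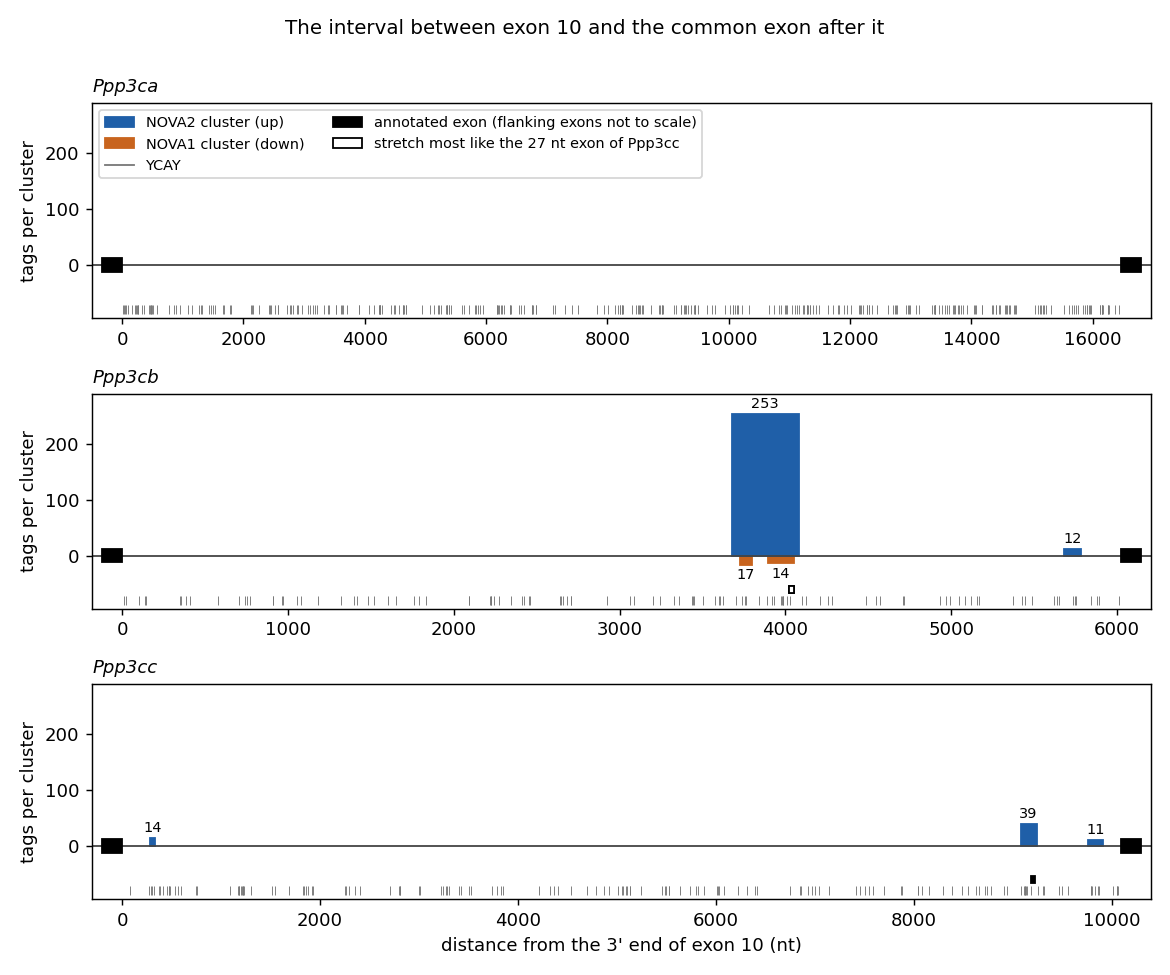
The interval between exon 10 and the common exon after it in the catalytic genes, as distance from the 3′ end of exon 10 in nt (horizontal) with tags per cluster (vertical), NOVA2 up and NOVA1 down; grey ticks are YCAY, the filled box is the 27 nt exon of Ppp3cc and the open box the Ppp3cb stretch most like it. Ppp3ca has YCAY throughout and 0 clusters, while the highest clusters of Ppp3cb and Ppp3cc, of 253 and 39 tags, cover the boxed elements.

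The other short exons of these genes were not near a cluster. Each catalytic gene has an exon of 30 nt near its 3′ end, and the nearest NOVA2 cluster lay 3188 nt away in Ppp3ca, 2034 nt in Ppp3cb and 5178 nt in Ppp3cc. Thus 1 of the 4 inner exons of at most 30 nt in these genes was overlapped by a NOVA2 cluster. Over the annotation, 0.963% of 3428 such exons and 0.347% of longer inner exons were overlapped. The annotation includes genes without a NOVA2 cluster, so the sets are unlike, and the count in these genes rests on 1 exon.

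Ppp3r1, on chromosome 11 (chr11:17059266-17100378, plus strand), encodes the calcium-binding B subunit. The cluster of 122 NOVA2 tags shown above held 56.0% of the gene's NOVA2 tags and began 1269 nt downstream of exon 2. A NOVA1 cluster of 31 tags (chr11:17083419-17083581) started at the same nucleotide and ended 4 nt later. A NOVA2 cluster of 39 tags (chr11:17085362-17085543) lay in the same intron. Intron 1 held 2 NOVA2 clusters of 13 tags each. The second of these had 42758 further copies in the genome by the same criterion and so consisted of repeat sequence.

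In the 3′ UTR of Ppp3r1, a NOVA1 cluster of 32 tags (chr11:17099233-17099374) overlapped a NOVA2 cluster of 20 tags (chr11:17099272-17099408), and a NOVA2 cluster of 11 tags followed. The annotated span of Wdr92 begins within Ppp3r1 on the same strand and includes 4 of the 6 NOVA2 clusters and both NOVA1 clusters, so the gene of origin of these tags cannot be told apart by position. No other cluster of the same strand lay within 10 kb of any of the 4 genes.

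At positions bound by both proteins, the excess of NOVA2 over NOVA1 tags was mostly, but not always, larger in introns than in 3′ UTRs. Values are log2 of NOVA1 over NOVA2 tags, not scaled to library depth, with exact 95% intervals for the counts. The highest Ppp3ca pair, of 15 and 122 tags, gave -3.02 (-3.90 to -2.25). The other Ppp3ca intron pairs gave -2.22 and -1.32, and the Ppp3r1 intron pair, of 31 and 122 tags, gave -1.98. The median of 3452 intron pairs that overlapped one to one was -2.04 (quartiles -2.63 and -1.36). In Ppp3cb, where both NOVA1 clusters shared a NOVA2 partner, their sum of 31 tags against 253 gave -3.03 (-3.62 to -2.49), close to the highest Ppp3ca pair.

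Most 3′ UTR pairs were more even than the intron pairs. The 3′ UTR pairs gave -1.55 and -0.34 in Ppp3ca, -0.52 in Ppp3cb and 0.68 in Ppp3r1. The median over 2146 pairs in 3′ UTRs was -0.40 (quartiles -1.0 and 0.22). The Ppp3r1 pair, of 32 and 20 tags, was the only pair in these genes with more NOVA1 than NOVA2 tags, and its interval (-0.17 to 1.56) included 0. A value of 0 marks equal raw tags and not equal binding, because by the study's totals NOVA2 was sequenced more deeply. The Ppp3ca pair of 38 and 111 tags was, in raw tags, the most shifted to NOVA2 of these 3′ UTR pairs, with 10.5% of 3′ UTR pairs lower. Its ratio was below that of the Ppp3ca intron pair of 18 and 45 tags (-1.32), and their intervals overlapped.

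**Figure D4:**
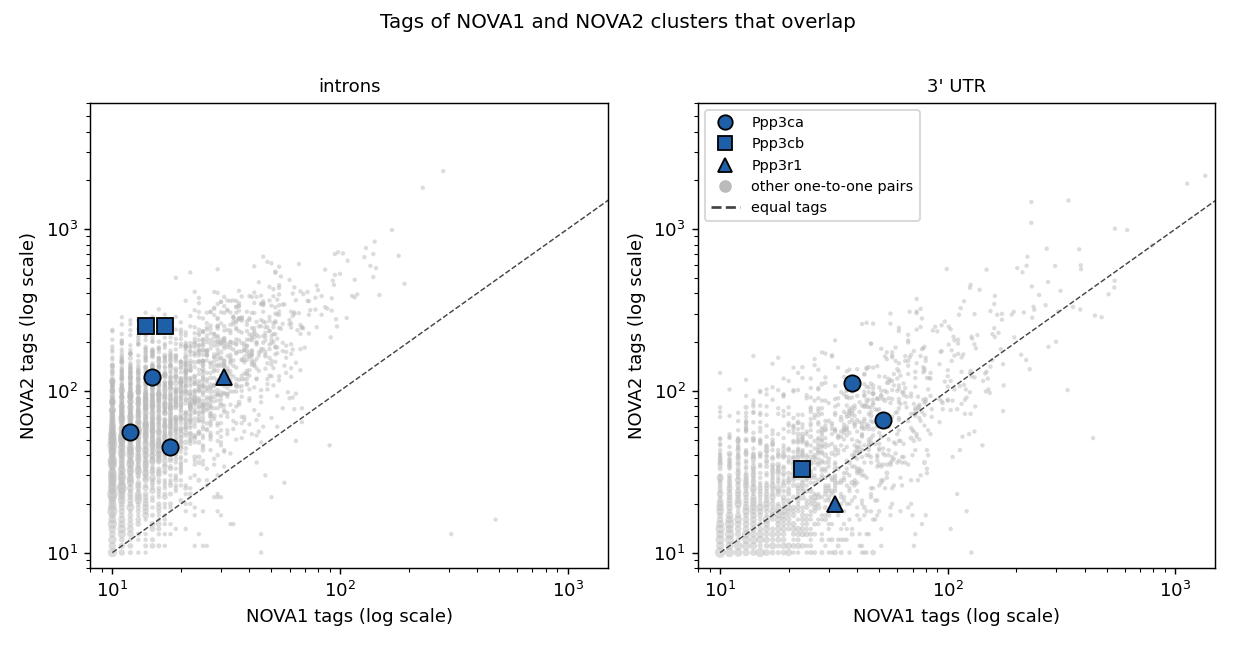
NOVA2 tags against NOVA1 tags (both log scale) at overlapping clusters in introns (left) and 3′ UTRs (right), with the calcineurin genes as blue symbols, other one-to-one pairs in grey and a dashed line at equal tags. The Ppp3cb intron clusters, of 14 and 17 NOVA1 tags, are both plotted at the 253 tags of their common NOVA2 cluster, and the Ppp3r1 3′ UTR pair of 32 and 20 tags lies below the line.

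All 10 NOVA1 and all 41 NOVA2 clusters contained at least 1 YCAY, as did 98.1% and 99.3% of the lists. The rate was 45.6 YCAY per 1000 possible starts in NOVA1 clusters and 17.8 in their flanks 200 to 500 nt away, a ratio of 2.55 (95% counting interval 1.96 to 3.26 with the flank rate held fixed), beside 2.02 in the whole list. In NOVA2 clusters it was 38.2 against 16.6, a ratio of 2.30 (2.02 to 2.61), beside 2.29 in the list. By class, the NOVA1 ratio was 2.40 in introns and 2.85 in 3′ UTRs, beside 2.81 and 1.54 in the list. The NOVA2 ratio was 2.33 in introns and 2.27 in 3′ UTRs, beside 2.41 and 1.71 in the list.

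Genes that act with calcineurin were counted from a list ordered by role, of which 35 of 36 symbols were in the annotation. Of these, 15 held a NOVA1 cluster and 21 a NOVA2 cluster, beside the 12.7% and 22.7% of all protein-coding genes given above. Among 9 regulators and anchors, 2 held NOVA1 and 5 NOVA2 clusters. They included the inhibitors Cabin1, with 10 NOVA1 and 110 NOVA2 tags, and Rcan1, with 61 NOVA2 tags in introns. The inhibitor Rcan3 had 25 NOVA1 and 13 NOVA2 tags, all in exons. Calm2, which encodes calmodulin, the calcium sensor that activates the phosphatase, had 30 NOVA1 and 22 NOVA2 tags, all in exons.

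Among 9 transcription factors and coactivators that calcineurin acts on, 3 held NOVA1 and 6 NOVA2 clusters. Mef2c had 45 NOVA1 and 838 NOVA2 tags, Mef2a had 17 and 177, and the CREB coactivator Crtc1 had 78 and 137. Of the 4 NFAT genes, Nfatc3 alone, named after its values were seen, held a cluster, of 31 NOVA2 tags. All 3 kinases that oppose calcineurin on NFAT held clusters of both proteins. Dyrk1a had 214 NOVA1 and 939 NOVA2 tags, Gsk3b had 130 and 534, and Csnk1a1 had 182 and 273. Among 11 other substrates, 4 held NOVA1 and 5 NOVA2 clusters. Itpr1, an intracellular calcium channel, had 447 NOVA2 tags, all in introns, and 0 NOVA1 tags. The endocytic proteins amphiphysin (Amph, 94 and 241 tags) and dynamin (Dnm1, 79 and 123 tags) held clusters of both.

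The few other phosphatase genes of the family that held clusters differed from the calcineurin catalytic genes in where their tags lay. Of 8 catalytic genes outside calcineurin, 4 held NOVA1 and 3 held NOVA2 clusters, and 0 of their 241 NOVA1 and 0 of their 352 NOVA2 tags were intronic. Ppp1cb led with 105 NOVA1 and 225 NOVA2 tags, followed by Ppp2ca with 101 and 71. In Ppp3ca, 711 of 912 NOVA2 tags were intronic. No test of this difference was possible from pooled counts, and the spans and intron lengths of these genes were not compared.

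The genes with the most similar tags in introns and exons were found by distance on the log2(tags + 1) scale, over the 4 tag sums of each gene and among 5491 genes. For Ppp3ca they were Apba1 (0.38), Ankrd17 (0.73) and Gng2 (0.74). For Ppp3cb they were Ube2k (0.26), Map4k3 (0.70) and Shank2 (0.74). Ppp3cc was tied at 0 with 13 genes, among them Agpat6, Ankrd50 and C2cd2l, each with 64 NOVA2 intron tags and none elsewhere. For Ppp3r1 the nearest was Wdr92 (0.21), which shares its clusters, followed by Tshz1 (0.44) and AF064781 (0.54).

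As a check of the tissue, 6 of 11 forebrain genes such as Tbr1 were bound by NOVA1 and 8 by NOVA2, whereas 0 of 12 hindbrain and spinal cord genes held a cluster of either protein. A missing cluster does not show that an RNA was absent.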

How the data were processed

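NOVA1 and NOVA2 HITS-CLIP had been carried out on embryonic day 18.5 cortex, 3 libraries per protein. The submitters' processing notes name Novoalign and mm9. The authors collapsed duplicate reads, grouped tags of a strand into clusters supported by at least 2 libraries, and deposited those with a count of at least 10 tags, pooled over libraries and not scaled to depth. The lists do not state whether this count is all tags or a peak height. The study calls its minimum of 10 tags a peak height. If the count is a height, the sums and shares of tags given here are those of heights. Library totals cannot be read from the lists. By the totals the study gives, NOVA2 was sequenced more deeply, and the tag ratios were not corrected for this.

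Clusters were classed by the GENCODE vM1 feature of their strand that covered most nucleotides (coding sequence, then 3′ UTR, 5′ UTR, noncoding exon and intron where features coincided). Intron numbers refer to reference transcripts and distances after the stop codon or before the transcript end to the transcript with the longest 3′ UTR exon. An exon was alternative when another transcript's intron spanned it. An overlap of 1 nt on a strand made clusters of the lists shared. Further copies were sought with BLAST+ 2.17.0. Other steps used Python 3.11.15, NumPy 2.4.6, SciPy 1.17.1 and pysam 0.24.0, and were tested on simulated data. Figures were drawn with matplotlib 3.10.9. Intervals are exact for the pooled counts.

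Named were, by rule, clusters that overlapped the other list, were exonic or within 500 nt of an exon, or were among the 3 highest of a gene and list, and per role of the partner list the 2 genes with most tags for each protein, of which 1 is not reported here. The TCAT repeat cluster of Ppp3ca and the intron 1 clusters of Ppp3r1 were added after their values were seen. Genes, lists and rules were chosen with earlier results of these data known. Alternatives were other tag minimums, list lengths, overlaps, class rules, flanks and pair measures. RNA-seq and values of single libraries were not analysed here.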

Additional observations from a re-analysis of the deposited data

How the results depend on the processing

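No paired analysis was possible because each cluster has 1 tag count for all libraries of a protein, and for the same reason no library could be left out. Of 40 alternative values for 10 results, 29 stayed within the counting interval or 1.5 times the count and 11 moved. At 20 or more tags in both lists, 5 NOVA1 and 22 NOVA2 clusters remained, and the NOVA1 YCAY ratio was 3.29. The intron share of NOVA1 clusters fell from 60% to 20% (1 of 5), so introns no longer held most of them. With NOVA2 at 25 or more tags there were 17 NOVA2 clusters, of which 47.1% were shared. With as many NOVA2 clusters, the highest, as the NOVA1 list holds, there were 16, of which 50% were shared. The log2 ratio of NOVA1 to NOVA2 tags over the summed intron pairs, -2.18, was -2.99 over every overlapping pair, which counts the 253 tags of Ppp3cb for each of their 2 NOVA1 clusters, and -1.80 as tags per nt. That of the 3′ UTR pairs, -0.67, was -0.093 as tags per nt. Over intron clusters alone, an alternative chosen after seeing the data, the YCAY ratio was 2.40 for NOVA1 and 2.33 for NOVA2. The intron clusters of the whole lists gave 2.81 and 2.41. NOVA1 sites under 10 tags are outside the list.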
